A study of Mus musculus with 20 samples.

Results

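The nuclear-encoded subunits of respiratory complex I were followed in liver RNA from 20 female mice, measured on Illumina Mouse WG-6 v2.0 bead arrays. A probe was a member when its platform annotation symbol began with Ndufa, Ndufb, Ndufc, Ndufs or Ndufv, and the Ndufaf assembly factors were left out. This gave 55 probes for 36 symbols among 45281 probes and 19057 symbols on the array. Of these, 52 probes for 35 symbols were detected in at least 5 of the 20 livers and entered the tests, among 15096 probes kept in all. The 3 members left out, 1 probe each of Ndufs1, Ndufb2 and Ndufb11, were detected in 0 of the 20 livers, so Ndufs1 had no measured probe.

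Each of the 4 groups held 5 mice. B6.Pdss2(kd/kd) mice carry, on the B6 strain and in every tissue, a missense mutation in both copies of Pdss2, whose enzyme makes the side chain of coenzyme Q. Probucol mutants ate chow with 1% (w/w) probucol, an antioxidant and lipid-lowering drug, at an estimated 95 mg per kg body weight per day, and were 140 to 145 days old. CoQ10 mutants received CoQ10 at 1 mg/ml, an estimated 400 mg per kg per day, and were 153 to 156 days old. Untreated mutants ate the plain chow and were 129 to 143 days old. Wild-type B6 mice on plain chow were 215 to 217 days old, so age and genotype cannot be told apart in any mutant against wild-type comparison. The livers whose treatment field says probucol carry an array name that begins with Untr, and those labelled untreated one that begins with Prob. The treatment field was followed, and directions between these 2 groups hold for the livers as that field labels them. In the same labels urine albumin is 0.84 to 1.86 mg per 24 h in the mice labelled probucol, against 13.52 to 57.34 mg in those labelled untreated, and the glomerular nephritis score is 0 to 3, against 2 to 4. The transcript level of Pdss2 itself was not analysed here.

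Complex I is the largest enzyme of the respiratory chain. It takes electrons from NADH at a flavin, passes them along iron-sulfur clusters in an arm that reaches into the mitochondrial matrix, and hands them to coenzyme Q, while an arm in the inner membrane pumps protons. The core subunits that carry the flavin and the clusters are nuclear genes, the core pumping subunits are encoded by mitochondrial DNA, and the remaining, accessory subunits stabilise both arms. The electron acceptor of complex I is thus coenzyme Q, whose side chain the Pdss2 enzyme makes. The labels give no coenzyme Q level for these livers. Ndufa4 kept its old name but is a subunit of cytochrome c oxidase, and Ndufs5-ps is annotated as a pseudogene.

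Between 12268 and 15003 probes were detected per liver, and the groups overlapped in this number. All 6 hepatocyte markers were measured, and Apoa1 and Ttr lay near the top of the scale, at a highest group mean of 16.11 each in log2 intensity, while the only Alb probe reached 9.22. Values are log2 intensities after background correction and quantile normalisation, a difference is the first group's mean minus the second's, and tests are limma's moderated tests with Benjamini-Hochberg adjustment over all 15096 probes, with calls at an adjusted p under 0.05. In whole liver, fewer cells of a type and less RNA per cell cannot be told apart. The precision is limited by 5 arrays per group, each from a separate animal per the labels.

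Most complex I probes had a higher group mean in each mutant group than in wild type, by small amounts. In probucol mutants 42 of the 52 probes lay above wild type, where 47.9% of all probes did, and the median difference was 0.17 in log2. In CoQ10 mutants the count was 47 of 52, against 49.1% of all probes, with a median of 0.17. In untreated mutants it was 49 of 52, against 49.4%, with a median of 0.18. The median over all probes was -0.01 in both treated comparisons and -0.002 in untreated mutants. The 3 comparisons share the same 5 wild-type livers, so they are not separate evidence. Wild type had the lowest group mean for 38 of the 52 probes and the highest for 0, and it was lowest for 26.2% and highest for 27.8% of all probes. The CoQ10 group had the highest mean for 29 of the 52, the untreated mutants for 14 and the probucol mutants for 9. Of all probes, 28.9%, 19.4% and 23.9% were highest in these groups, in the same order.

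**Figure D1:**
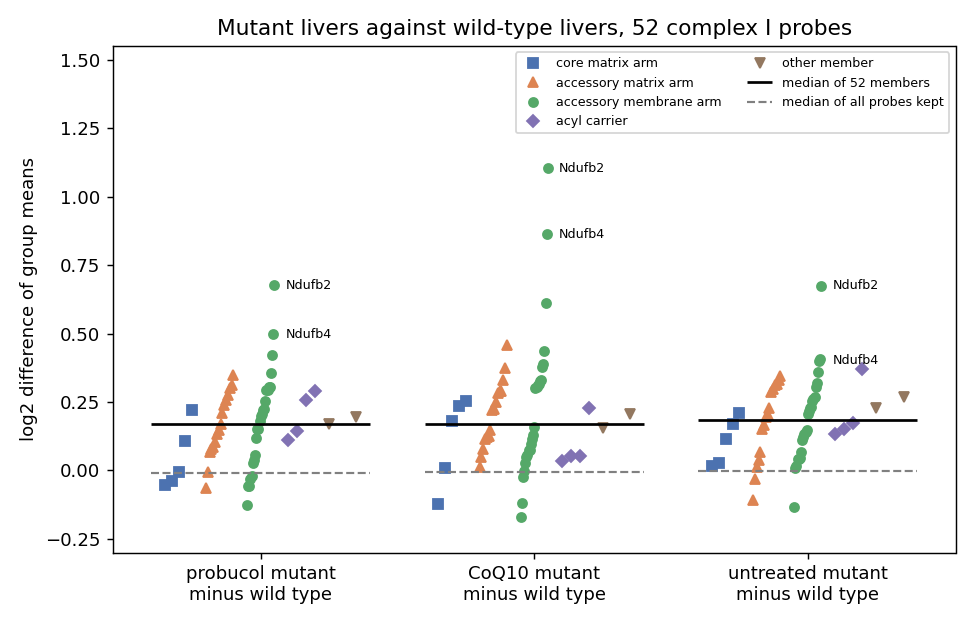
Difference in group mean log2 intensity between each mutant group and wild type (y axis), 1 point per kept complex I probe, with symbols for the role of the subunit. Solid lines mark the median of the 52 members (0.17, 0.17 and 0.18 for probucol, CoQ10 and untreated mutants) and dashed lines the median of all 15096 probes. Ndufb2 is the highest point in each comparison.

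Few single probes passed the test. In CoQ10 mutants against wild type 1 of 52 members, Ndufb2, was called (1.92%), against 0.437% of all probes. In probucol mutants against wild type 0 of 52 were called, against 0.702%, and in untreated mutants against wild type 0 of 52, against 0.119%. Between mutant groups 0 of 52 were called for probucol against untreated (0.0132% of all probes), 0 for CoQ10 against untreated (0.119%) and 0 for probucol against CoQ10 (0.0464%). The moderated F test over the 4 groups called 0 of 52, against 0.51% of all probes.

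At an unadjusted p under 0.05, limma passed 18 of 52 members in CoQ10 mutants against wild type (34.6%, against 13.3% of all probes), all of them higher in the mutants. It passed 10 in probucol mutants against wild type (19.2%, against 12.3%) and 12 in untreated mutants against wild type (23.1%, against 5.5%), again all higher in the mutants. Between mutant groups the member counts were 1 for probucol against untreated (background 6.13%), 0 for CoQ10 against untreated (background 9.37%) and 3 for probucol against CoQ10 (5.77%, background 9.96%). The F test passed 8 members (15.4%), near the background of 13.1%.

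The groups did not overlap for 8 of 52 probes in CoQ10 mutants against wild type (15.4%, against 4.61% of all probes), and all 8 were higher in the CoQ10 mutants. They belonged to 7 genes, Ndufb2, Ndufb4, Ndufb5, Ndufb9, Ndufb10 with both of its probes, Ndufc1 and Ndufs4. Non-overlap was not particular to complex I. In the same comparison 11 of 40 kept probes of complexes II to V were higher without overlap and 2 were lower. Of 109 mitochondrial ribosome probes, 13 were higher without overlap and 2 were lower. In untreated mutants against wild type 1 of 52 did not overlap (background 1.56%), and in probucol mutants against wild type 0 of 52 (background 3.13%). Between mutant groups the counts were 0 for probucol against untreated (background 0.908%), 0 for CoQ10 against untreated (1.68%) and 1 for probucol against CoQ10 (1.52%).

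Livers of the same group differed widely, most of all among the untreated mutants. The median over the 52 probes of each liver's deviation from the probe's mean was 0.06, -0.13, 0.12, 0.09 and -0.02 in probucol livers 1 to 5. It was 0.05, 0.11, 0.16, 0.14 and -0.13 in CoQ10 livers, 0.23, -0.12, -0.02, 0.29 and -0.06 in untreated mutant livers, and -0.22, -0.15, -0.03, -0.12 and -0.11 in wild-type livers. Each mutant group overlapped the wild-type range, and the 2 highest livers of the series were untreated mutants 4 and 1. These 2 livers had 46 and 45 of the 52 probes above the probe's mean, while the other 3 untreated mutants had 9, 21 and 16. CoQ10 liver 5 and probucol liver 2 had the lowest medians among the mutants, with 17 and 16 probes above the mean. Wild-type livers had 7 to 22.

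**Figure D2:**
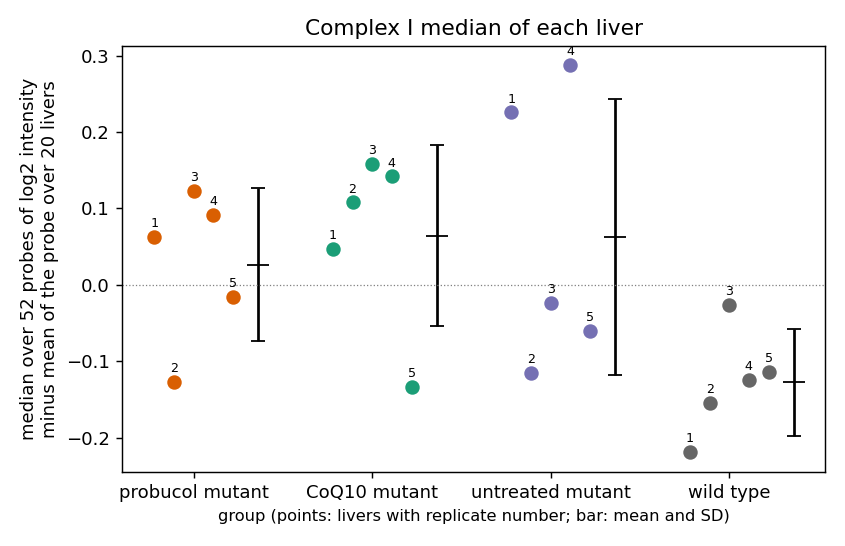
Complex I median of each liver (y axis, log2 units, relative to each probe's mean over the 20 livers), with livers numbered within their group and bars for the group mean and SD (n = 5). Untreated mutants split into 2 high livers, at 0.23 and 0.29, and 3 livers between -0.12 and -0.02. The wild-type livers lie between -0.22 and -0.03.

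Without untreated livers 1 and 4 the median difference from wild type was 0.06, with 40 of 52 probes above wild type. These 2 were left out because they were highest for complex I, so a lower median follows from the choice. They had 12457 and 15003 detected probes, summed blood marker signals of 24544 and 54005 and ages of 141 and 129 days. Their cholangiocyte marker signals, from only the brighter of the 2 kept Sox9 probes, were 305 and 191, the 2 lowest of the 20 livers. The part of these cells was not tested. The other respiratory complexes and the mitochondrial ribosome were also highest in these 2 livers.

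Each array name carries a number from 1 to 4, whose meaning the labels do not state, and each number holds livers of all 4 groups. Within numbers 1 to 4, where each group has 1 or 2 livers, the member median for probucol mutants against wild type was 0.25, -0.08, 0.24 and 0.12. For CoQ10 mutants it was 0.20, 0.14, 0.32 and 0.10, above 0 within each number. For untreated mutants it was 0.40, -0.05, 0.37 and 0.02. The probucol and untreated medians thus turned negative within number 2. With array number as a block, the counts of members called changed only as given beside Ndufa2 and Ndufb4 and in the F test, which then called Ndufb2 (adjusted p = 0.0421 by limma, where 0.828% of all probes were called).

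**Figure D3:**
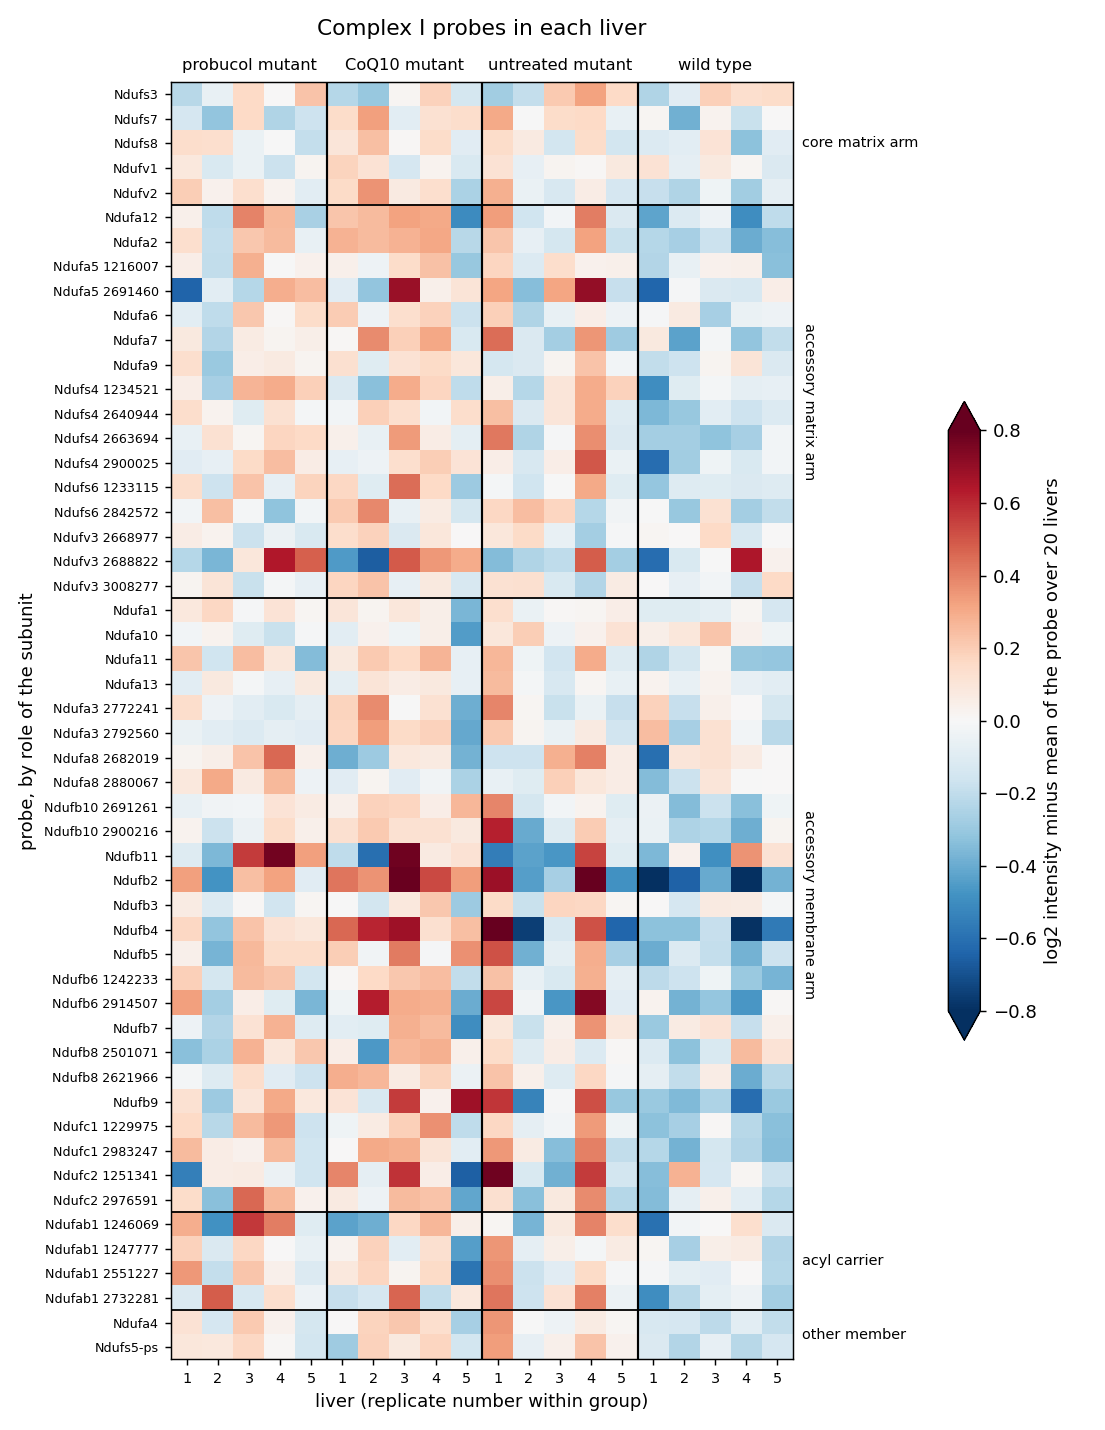
Log2 intensity of each of the 52 kept complex I probes in each of the 20 livers, centred on the probe's mean (colour scale, clipped at 0.8 on either side). Rows are grouped by role of the subunit, with the last digits of the probe identifier where a gene has several probes, and columns by group. Untreated mutant livers 1 and 4 are red over most rows, and wild-type columns are blue over most rows.

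The nuclear core subunits were measured by 5 probes, and 0 of 5 were called in the 6 comparisons. The median difference from wild type was -0.01 in probucol, 0.18 in CoQ10 and 0.12 in untreated mutants. Ndufv1 binds the flavin and NADH, and its mean was 13.42 in probucol, 13.49 in CoQ10 and 13.51 in untreated mutants, against 13.48 in wild type. These 4 means span less than the SD of 0.14 among the CoQ10 livers.

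Ndufs7 holds the last iron-sulfur cluster, next to the coenzyme Q site. Its log2 intensity was 12.85, 12.67, 13.14, 12.74 and 12.82 in probucol livers, 13.13, 13.31, 12.90, 13.11 and 13.13 in CoQ10 livers, 13.29, 12.98, 13.13, 13.14 and 12.92 in untreated mutants, and 13.00, 12.60, 13.01, 12.81 and 12.99 in wild type. Probucol liver 3 reached the levels of the CoQ10 and untreated groups, and all groups overlapped. Ndufs7 had the smallest member p both for probucol against CoQ10, at -0.27 ± 0.12 (SE, adjusted p = 0.435 by limma), and for probucol against untreated, at -0.25 ± 0.12 (adjusted p = 0.803 by limma), and neither passed. With the groups taken from the array names the second difference is 0.25, since probucol and untreated then change places. Ndufs3, a cluster-arm subunit without a cluster of its own, had a difference of -0.12 for CoQ10 against wild type.

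Accessory subunits of the matrix arm were measured by 16 probes of 9 genes. Against wild type, 14 of 16 had a higher mean in probucol, 16 of 16 in CoQ10 and 14 of 16 in untreated mutants, and 0 of 16 were called in each. The medians were 0.16, 0.22 and 0.20 in the same order.

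Ndufa2 is a small subunit with a thioredoxin-like fold at the tip of the matrix arm. Its log2 intensity was 13.23, 12.90, 13.31, 13.35 and 13.04 in probucol livers, 13.37, 13.35, 13.37, 13.41 and 12.88 in CoQ10 livers, 13.32, 13.03, 12.96, 13.42 and 12.92 in untreated mutants, and 12.87, 12.83, 12.93, 12.70 and 12.76 in wild type. CoQ10 livers 1 to 4 lay together above every wild-type liver, and CoQ10 liver 5 lay inside the wild-type range. The difference from wild type was 0.46 ± 0.13 in CoQ10 mutants (SE, adjusted p = 0.108 by limma) and 0.35 ± 0.13 in probucol mutants (adjusted p = 0.244 by limma), and with array number entered as a block the CoQ10 value was 0.51 and was called (adjusted p = 0.0338).

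Ndufs4 is an assembly-stabilising subunit whose loss in mice gives a model of Leigh syndrome. Probe ILMN_2640944 read 12.17, 12.06, 11.93, 12.15 and 12.02 in probucol livers, 12.01, 12.22, 12.16, 12.01 and 12.17 in CoQ10 livers, 12.27, 11.91, 12.13, 12.33 and 11.93 in untreated mutants, and 11.67, 11.73, 11.95, 11.87 and 11.92 in wild type. All 5 CoQ10 livers lay above all 5 wild-type livers, while 1 probucol liver and 2 untreated livers lay inside the wild-type range. The differences were 0.24 in probucol, 0.29 in CoQ10 and 0.29 in untreated mutants, each ± 0.11 (SE), with adjusted p-values by limma of 0.354, 0.209 and 0.648. The 4 Ndufs4 probes gave 0.11 to 0.29 for CoQ10 against wild type.

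Ndufa12, an accessory subunit of this arm, had differences from wild type of 0.30 in probucol, 0.37 in CoQ10 and 0.34 in untreated mutants, and did not pass (adjusted p 0.345 to 0.92 by limma). Ndufv3, an accessory subunit beside the flavin site, had its 3 probes between -0.11 and 0.13 of wild type. Its dim probe ILMN_2688822, detected in 6 of the 20 livers, read 5.38 to 6.39 in probucol, 5.09 to 6.24 in CoQ10 and 5.40 to 6.23 in untreated mutants, against 5.14 to 6.40 in wild type.

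Accessory subunits of the membrane arm were measured by 25 probes of 18 genes and included the members with the widest differences. Against wild type, 20 of 25 had a higher mean in probucol, 21 of 25 in CoQ10 and 24 of 25 in untreated mutants. One of 25, Ndufb2, was called in CoQ10 mutants, and 7 of the 8 probes whose CoQ10 and wild-type livers did not overlap were in this role.

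Ndufb2 is a small single-pass subunit of the distal membrane arm. Its kept probe, ILMN_2636435, read 10.11, 9.30, 10.02, 10.10 and 9.69 in probucol livers, 10.21, 10.14, 10.57, 10.31 and 10.11 in CoQ10 livers, 10.46, 9.33, 9.51, 10.59 and 9.29 in untreated mutants, and 8.96, 9.13, 9.38, 8.96 and 9.40 in wild type. The CoQ10 livers were all above the wild-type livers and, by a narrow margin for liver 5, above the probucol livers, whereas untreated mutants held both the highest liver of the series and 2 livers inside the wild-type range. Against wild type, Ndufb2 rose 2.15-fold in CoQ10 mutants, with a log2 difference of 1.10 ± 0.23 (SE, 95% interval 0.63 to 1.58, adjusted p = 0.0319 by limma).

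The same probe had a difference from wild type of 0.68 ± 0.23 in probucol mutants (adjusted p = 0.197 by limma) and 0.67 ± 0.23 in untreated mutants (adjusted p = 0.536 by limma). CoQ10 minus untreated was 0.43 ± 0.23, with an interval of -0.04 to 0.90 (adjusted p = 0.589 by limma), so a difference between CoQ10 and untreated mutants was not shown. Within array numbers 1 to 4, CoQ10 minus wild type was 1.16, 0.76, 1.61 and 0.81, and untreated minus wild type was 1.42, 0.05, 1.63 and -0.10. Without any one of the 5 CoQ10 livers, or without wild-type liver 2, 3 or 4, the adjusted p of the CoQ10 difference lay above 0.05, at 0.0501 to 0.0993, while the log2 difference stayed between 1.03 and 1.16. Each array divided by its median gave 1.06 with an adjusted p of 0.504. The second Ndufb2 probe was not detected in any liver and gives no check on the first.

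Ndufb4, another membrane-arm subunit, read 8.47, 7.99, 8.53, 8.42 and 8.40 in probucol livers, 8.76, 8.91, 8.98, 8.43 and 8.55 in CoQ10 livers, 9.11, 7.55, 8.18, 8.82 and 7.67 in untreated mutants, and 7.97, 7.98, 8.12, 7.51 and 7.74 in wild type. CoQ10 and wild-type livers did not overlap, and untreated mutants held livers both inside the wild-type range and above it, with liver 1 the highest of the series. CoQ10 minus wild type was 0.86 ± 0.23 (SE, adjusted p = 0.0963 by limma) and did not pass, but it did with the array number as a block (0.96, adjusted p = 0.0307, where 2.1% of all probes were called), in a fit of only these 2 groups (0.86, adjusted p = 0.0186, where 1.23% were called) and without untreated liver 1 (adjusted p = 0.0492), a liver that enters through the shared spread. It was 0.52 in the authors' deposited log2 values and 0.53 with no background correction (adjusted p = 0.113 and 0.0833 by limma), and 0.81 with median scaling (adjusted p = 0.788 by limma). The promoter table lists a second locus, Ndufb4b, and whether the probe also reads it was not tested.

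Ndufb9, a membrane-arm subunit of the LYR family, read 10.94, 10.53, 10.92, 11.12 and 10.91 in probucol livers, 10.93, 10.69, 11.38, 10.85 and 11.50 in CoQ10 livers, 11.39, 10.29, 10.81, 11.34 and 10.51 in untreated mutants, and 10.52, 10.46, 10.57, 10.21 and 10.52 in wild type. CoQ10 and wild-type livers did not overlap, and untreated mutants fell into 2 livers at 11.39 and 11.34 and 3 between 10.29 and 10.81. CoQ10 minus wild type was 0.61 ± 0.20 (SE, adjusted p = 0.153 by limma).

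Ndufc1 probe ILMN_2983247 read 11.70, 11.50, 11.48, 11.70 and 11.28 in probucol livers, 11.45, 11.75, 11.73, 11.54 and 11.36 in CoQ10 livers, 11.79, 11.51, 11.10, 11.84 and 11.24 in untreated mutants, and 11.22, 11.06, 11.30, 11.21 and 11.10 in wild type. CoQ10 livers lay above all wild-type livers, and the other mutant groups overlapped wild type. The differences were 0.35 in probucol, 0.39 in CoQ10 and 0.32 in untreated mutants, each ± 0.14 (SE), and did not pass (adjusted p = 0.275, 0.198 and 0.818 by limma). The second Ndufc1 probe gave 0.30 in each of the 3 comparisons. Ndufb5 and Ndufb10 probe ILMN_2691261, also without overlap between CoQ10 and wild type, had differences of 0.44 ± 0.16 and 0.33 ± 0.11 (adjusted p = 0.213 and 0.16 by limma).

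**Figure D4:**
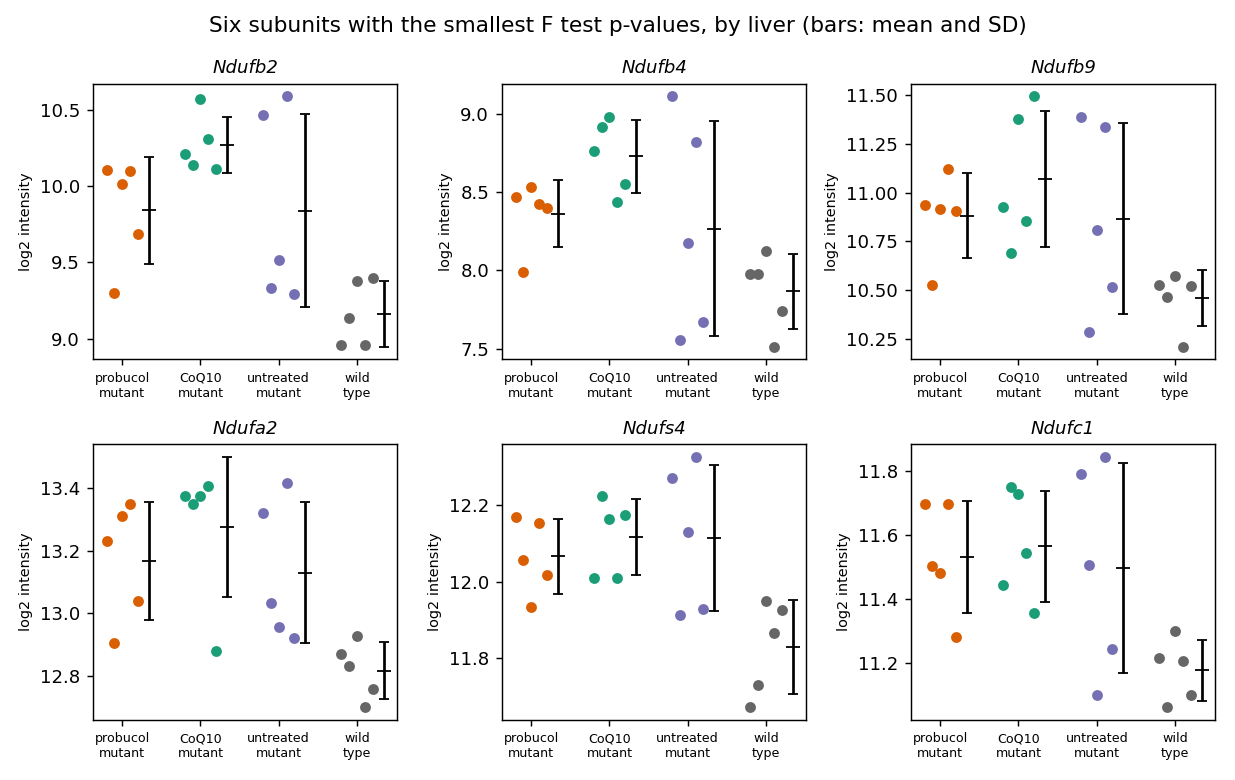
Log2 intensity (y axes, each with its own range) in every liver for the 6 subunits with the smallest F test p-values, with bars for the group mean and SD (n = 5). Ndufb2 livers of the CoQ10 group lie between 10.11 and 10.57, above the wild-type livers at 8.96 to 9.40. Untreated mutants spread most widely for Ndufb2, Ndufb4 and Ndufb9.

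Some membrane-arm members had a lower mean than wild type in part of the mutant groups. Ndufa10, a nucleoside-kinase-like subunit, read 13.13, 13.19, 13.06, 12.98 and 13.15 in probucol livers, 13.07, 13.19, 13.12, 13.20 and 12.71 in CoQ10 livers, 13.25, 13.35, 13.12, 13.19 and 13.27 in untreated mutants, and 13.20, 13.25, 13.38, 13.19 and 13.12 in wild type. CoQ10 liver 5 was lowest and the other livers overlapped across groups. The Ndufa10 mean was 13.10 in probucol, 13.06 in CoQ10 and 13.24 in untreated mutants, against 13.23 in wild type. CoQ10 minus wild type was -0.17 ± 0.10, the lowest among the members (SE, adjusted p = 0.52 by limma), and CoQ10 minus untreated was -0.18 ± 0.10 (adjusted p = 0.644 by limma). Without CoQ10 liver 5 these were -0.08 and -0.09.

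Ndufa8, a subunit on the intermembrane-space face, had both probes higher in probucol than in CoQ10 mutants, by 0.34 ± 0.16 and 0.22 ± 0.11 (SE, adjusted p = 0.479 and 0.496 by limma). Probe ILMN_2682019 read 11.31, 11.33, 11.51, 11.74 and 11.33 in probucol livers, 10.90, 10.99, 11.37, 11.36 and 10.91 in CoQ10 livers, 11.12, 11.12, 11.57, 11.69 and 11.34 in untreated mutants, and 10.68, 11.38, 11.40, 11.35 and 11.28 in wild type. CoQ10 livers 3 and 4 reached the probucol range, and wild-type liver 1 stood below the rest of its group. Neither probe passed.

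The dim Ndufb11 probe ILMN_2747885, detected in 6 of the 20 livers, read 5.66, 5.41, 6.33, 6.54 and 6.09 in probucol livers, 5.56, 5.16, 6.54, 5.84 and 5.88 in CoQ10 livers, 5.21, 5.34, 5.30, 6.31 and 5.67 in untreated mutants, and 5.41, 5.80, 5.28, 6.13 and 5.88 in wild type. The groups overlapped throughout. Probucol minus untreated was 0.44 ± 0.26, the highest member difference in that comparison (SE, adjusted p = 0.888 by limma), and it is -0.44 with the groups taken from the array names. The probe was detected in 3 probucol livers and in 1 liver of each other group. It thus passed the filter of 5 livers only through the group where it was highest, and its difference is no evidence of a rise.

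Ndufab1, the mitochondrial acyl carrier protein that complex I holds at more than one place and that also serves fatty acid synthesis, had 4 probes. Their median difference from wild type was 0.20 in probucol, 0.05 in CoQ10 and 0.16 in untreated mutants, and 0 of 4 were called in each. Ndufa4, the cytochrome c oxidase subunit, read 14.95, 14.71, 15.05, 14.87 and 14.70 in probucol livers, 14.84, 15.02, 15.06, 14.97 and 14.57 in CoQ10 livers, 15.19, 14.84, 14.80, 14.90 and 14.85 in untreated mutants, and 14.71, 14.71, 14.63, 14.75 and 14.64 in wild type. It was the 1 member whose untreated mutant and wild-type livers did not overlap, with a difference of 0.23 ± 0.11 (SE, adjusted p = 0.919 by limma).

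Between mutant groups the member medians lay near 0. Probucol minus untreated had a median of -0.02, with 20 of 52 members above 0 (background 50.3%), and CoQ10 minus untreated a median of 0.02, with 32 of 52 (background 50.8%). Probucol minus CoQ10 had a median of -0.04, with 17 of 52 (background 47.9%). Dividing each array by its median instead of quantile normalisation gave 40, 27 and 32 of 52 in these 3 comparisons, where 62.1%, 43.5% and 65.7% of all probes were above 0, and 51 of 52 for probucol against wild type, where 60% were. That scaling moved all probes along with the members, and the member median minus the median of all probes was -0.005, 0.03 and -0.03 between mutant groups, against -0.02, 0.02 and -0.03 after quantile normalisation. Without untreated livers 1 and 4 the CoQ10 median was 0.14, with 40 of 52 above 0, and 2 members were called, Ndufb2 at 0.89 and Ndufb4 at 0.93 (adjusted p = 0.0394 and 0.0366 by limma), where 0.397% of all probes were. Those 2 livers were left out because they were highest for complex I, so these 2 calls follow from the choice of livers.

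Of 12 genes with several kept probes, 10 had the same sign in every probe for probucol against wild type, 12 for CoQ10 and 11 for untreated mutants. For probucol against untreated mutants it was 5 of 12. With 1 probe per gene the medians against wild type were 0.17 in probucol, 0.16 in CoQ10 and 0.17 in untreated mutants over 35 genes.

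Promoters of 32 of the 36 symbols, 34 in all, were found in RefSeq's GRCm38.p6 table, each 250 bases before to 50 after the annotated start. The letters of 5 motifs known from promoters of respiratory genes were searched on both strands, with no overlap between the motifs set aside. AANATGGCG, the letters bound by YY1, stood in 7 of 34 member promoters (20.6%), against 2.38% of all 32851 promoters. The other shares were 5.88% against 1.87% for the nuclear respiratory factor 1 core CGCATGCG, 11.8% against 8.86% for the ETS core CCGGAAG, 38.2% against 25.6% for the SP1 box GGGCGGG, and 0% against 0.423% for the estrogen-related receptor letters TCAAGGTCA. The 7 with the YY1 letters were Ndufs4, Ndufc1, Ndufs7, Ndufa7, Ndufs6, Ndufb11 and Ndufa9, and 11 promoters held none of the 5. A match describes letters in a window and is not a bound site, and the table holds genes of every kind.

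The promoters of Ndufb2, Ndufb4 and Ndufs4 are shown because these are the 3 matched members with the smallest F test p-values, with any motif in capitals, read 5′ to 3′ on the gene's strand. Ndufb2 lies at chr6:39592315-39592614 on the plus strand and holds none of the 5 motifs. Ndufb4 lies at chr16:37654319-37654618 on the minus strand and holds an SP1 box that begins at -111 from the start. Ndufs4 lies at chr13:114388045-114388344 on the minus strand and holds the YY1 letters from base 36 after the start.
Ndufb2: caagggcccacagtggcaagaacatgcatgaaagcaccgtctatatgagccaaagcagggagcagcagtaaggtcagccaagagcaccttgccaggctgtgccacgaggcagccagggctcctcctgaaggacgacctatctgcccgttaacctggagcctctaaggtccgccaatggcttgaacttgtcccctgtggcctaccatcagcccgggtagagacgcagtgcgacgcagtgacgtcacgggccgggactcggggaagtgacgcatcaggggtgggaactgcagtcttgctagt
Ndufb4: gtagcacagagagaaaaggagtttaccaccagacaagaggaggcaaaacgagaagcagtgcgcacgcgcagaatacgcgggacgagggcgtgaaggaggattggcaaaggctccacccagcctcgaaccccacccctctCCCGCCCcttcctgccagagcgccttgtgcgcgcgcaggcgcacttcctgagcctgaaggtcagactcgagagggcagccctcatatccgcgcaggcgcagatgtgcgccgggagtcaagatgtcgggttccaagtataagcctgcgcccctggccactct
Ndufs4: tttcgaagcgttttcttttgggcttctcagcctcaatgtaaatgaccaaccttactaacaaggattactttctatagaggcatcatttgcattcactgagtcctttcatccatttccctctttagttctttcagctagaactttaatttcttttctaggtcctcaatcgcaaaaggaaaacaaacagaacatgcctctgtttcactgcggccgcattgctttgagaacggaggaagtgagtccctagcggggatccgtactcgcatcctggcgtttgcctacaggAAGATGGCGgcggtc

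Other mitochondrial genes were read from lists chosen for the pathway. Complex I assembly factors, which build the enzyme but are not part of it, had 23 kept probes with 0 called in each comparison with wild type. Their median difference was 0.19 in probucol, 0.13 in CoQ10 and 0.11 in untreated mutants. Ndufaf4 probe ILMN_2734060 had the widest difference among them, 0.56 ± 0.15 in probucol and 0.47 ± 0.15 in CoQ10 mutants (SE, adjusted p = 0.0888 and 0.157 by limma), but the second Ndufaf4 probe, ILMN_2551723, gave -0.05 and 0.14. Ndufaf2 had 0.33 ± 0.10 in CoQ10 mutants (adjusted p = 0.143 by limma). The 5 mitochondrially encoded complex I probes had medians of -0.07, -0.06 and 0.06 in probucol, CoQ10 and untreated mutants, with 0 called.

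Subunits of complexes II to V, 40 kept probes, had medians of 0.12 in probucol, 0.21 in CoQ10 and 0.17 in untreated mutants, and 109 mitochondrial ribosome probes had 0.16, 0.16 and 0.12. These lie close to the complex I medians of 0.17, 0.17 and 0.18, and no test of a difference between the lists was made. At an unadjusted p under 0.05 by limma, CoQ10 mutants against wild type had 17 higher and 4 lower among the 40 probes of complexes II to V. Among the 109 mitochondrial ribosome probes 27 were higher and 3 lower, where 13.3% of all probes passed. The 8 probes for mitochondrial mass (Cs, Vdac1, Vdac2, Tfam and Hspd1) had medians of -0.04, -0.08 and -0.08.

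**Figure D5:**
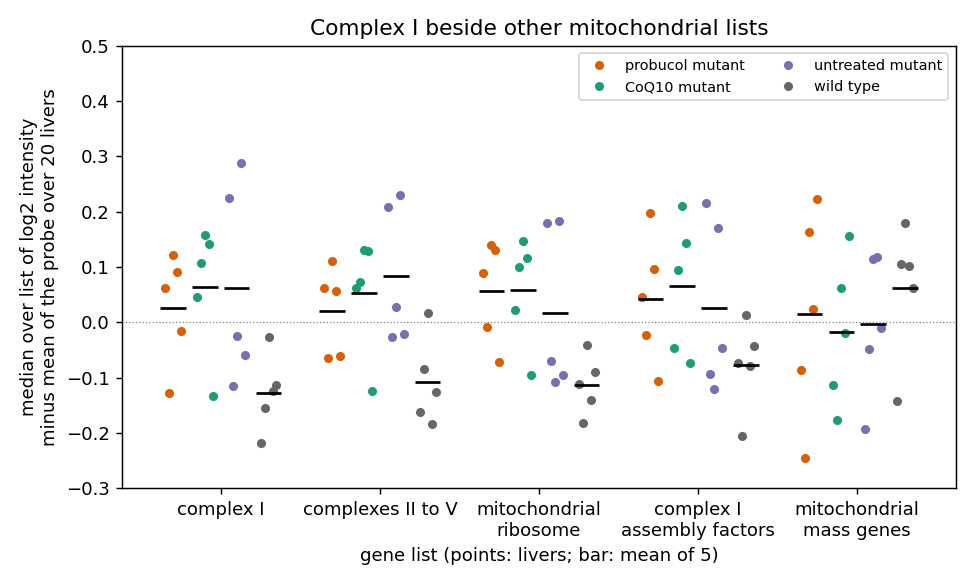
Median over each gene list of log2 intensity relative to the probe's mean over 20 livers (y axis), 1 point per liver, with bars for the mean of 5 livers and groups from left to right probucol, CoQ10 and untreated mutants and wild type. Untreated mutants split into 2 high and 3 lower livers for complex I, complexes II to V and the mitochondrial ribosome, and wild-type livers are not the lowest for the mitochondrial mass genes.

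Markers of other liver cells moved in some of the same comparisons. The summed intensity of Kupffer cell markers was 10672 to 11724 in probucol, 10697 to 14139 in CoQ10 and 9275 to 11820 in untreated mutants, against 8421 to 9750 in wild type, with 6 of 7, 7 of 7 and 7 of 7 kept probes above wild type and Cd5l without a kept probe. C1qa, a complement gene of macrophages, was called higher in CoQ10 mutants against wild type, at 0.88 (adjusted p = 0.0186 by limma). Summed blood markers were 17123 to 39341 in probucol, 18955 to 49721 in CoQ10 and 22327 to 54005 in untreated mutants, against 32863 to 58435 in wild type. Of 5 kept sinusoidal endothelial probes 1, Lyve1, was called higher in probucol mutants against wild type, at 0.86 (adjusted p = 0.0419 by limma), and it was 0.41 in CoQ10 and 0.78 in untreated mutants. The 5 probes as a list went both ways, with 3, 2 and 4 above wild type in probucol, CoQ10 and untreated mutants and medians of 0.03, -0.01 and 0.06. The 6 kept stellate cell probes had a lower mean in probucol mutants than in wild type in 6 of 6, with a median of -0.16 and 0 called. In CoQ10 and untreated mutants 3 and 4 of the 6 stellate probes were above wild type, with medians of -0.02 and 0.07. The part of these cells in the complex I values was not tested.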

How the data were processed

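Liver total RNA (200 ng per mouse) was labelled with biotin and hybridised to 1 array per animal, per the labels' protocols. The deposited table gives an intensity per probe and array, not normalized per the file headers, with a detection fraction beside it that is headed as a p-value but rises with intensity (rank correlation 0.99 to 0.996), so 1 minus it was used as the detection p. The authors' deposited log2 values, made by steps that no label or header describes, served as an alternative. In R 4.3.3, limma 3.58.1 corrected background (normexp from the negative-control estimate, offset 16), quantile normalised and took log2. Probes with a detection p under 0.05 in at least 5 of 20 arrays were kept (15096 of 45281), and 1 fit of 4 group means gave 6 comparisons and an F test, adjusted by Benjamini-Hochberg. Gene names came from the platform annotation (34885 probes with 1 symbol, 18 with several, 10378 with none), and 55 of 55 member probes matched the gene table. No 2 arrays held identical values. The script was tested on simulated data. Members and gene lists were chosen with earlier results of these data known. Members were named by role. Full statistics went to called members, the 3 smallest p-values, the 2 widest differences in each direction and up to 4 without overlap. Values in every liver went to those named in 2 or more comparisons or among the 6 smallest F test p-values, and Ndufa4 was added after its values were seen. Alternatives were the background correction, median scaling, filters, the authors' values, array number and replicate blocks, exchanged groups, left-out livers and 1 probe per gene. Leaving out single livers for Ndufa10 in CoQ10 mutants against wild type was chosen after seeing the data. Replicate numbers count the livers within a group, and the main fit did not pair animals by them.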

Additional observations from a re-analysis of the deposited data

Results flagged for a closer look

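Among 52 sets of 5 livers, for the members given liver by liver and for the complex I median, 6 held a liver far from the other 4 by Dixon's criterion (gap over range above 0.71). For a single set chance gives about 1 in 20. The sets share livers and the members were picked by their values, Ndufa4 after these were seen, so the count cannot be compared with that rate. CoQ10 liver 5 was low for Ndufa2, at 12.88, and for Ndufa10, at 12.71. Wild-type liver 1 was low for Ndufa8 (ILMN_2682019), at 10.68. Probucol liver 2 was low for Ndufb4, at 7.99. Untreated mutant liver 1 was high for Ndufa4, at 15.19. Untreated mutant liver 4 was high for the dim Ndufv3 probe ILMN_2688822, at 6.23.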

How the results depend on the processing

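For untreated mutants against wild type the member median was 0.40, -0.047, 0.37 and 0.022 within array numbers 1 to 4. Within single numbers it was also -0.17 for CoQ10 against untreated (number 1), 0.32 for CoQ10 against wild type (number 3), -0.16 for probucol against CoQ10 (number 2) and -0.081 for probucol against wild type (number 2), and median scaling gave 0.30 for the last comparison. The count of members called for CoQ10 against wild type, 1 as reported, was 0 with median scaling, 0 with no filter and 0 to 1 with 1 liver left out. It was 3 with the array number block (2.1% of all probes) and 2 in the fit of these 2 groups only (1.23%). For CoQ10 against untreated it was 2 without untreated livers 1 and 4 (0.397% of all probes). The F test called 1 member with the array number block (0.828% of all probes) and 0 to 1 with 1 liver left out. Without untreated livers 1 and 4 it called 2 members and 1.42% of all probes, against 0.51% of all probes in the main fit. With groups taken from the array names, probucol against untreated turned sign by construction (Ndufs7 0.25, Ndufa10 0.13, Ndufb11 -0.44). For the other results named here the cause was not tested. Same-numbered livers correlated at -0.32 to 0.46 and matched their own number best in 11 of 30 pairs, and the replicate block left 1 call, Ndufb2 (adjusted p = 0.025 by limma). Without untreated livers 1 and 4, Ndufb2 was also called for probucol against wild type (0.68, adjusted p = 0.0414 by limma). Ndufb4 was then called for CoQ10 against wild type (0.86, adjusted p = 0.00853 by limma). Both differences were those of the full fit, where untreated livers enter only through the shared spread. These 2 livers were left out because they were highest for complex I, so the calls in this setting follow from the choice of livers. The 4 kept probes detected in under 20 livers are limited by signal over background.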
